A study of Mus musculus with 14 samples.

Results

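The Sox genes described here are 9 members of the SRY-related high-mobility group family of transcription factors, 3 each from the groups SoxB (Sox1, Sox2 and Sox21), SoxC (Sox4, Sox11 and Sox12) and SoxE (Sox8, Sox9 and Sox10). For each gene, the peaks of the E14 H3K27ac ChIP-Seq list that overlapped the gene body extended by 50 kb on either side were taken, in mm9 with GENCODE vM1. The 9 windows held 16 of the 13463 peaks. The series profiled mouse retina at embryonic day 14 (E14) and postnatal day 2 by ATAC-Seq, RNA-Seq and ChIP-Seq, in wild-type, GFP+ and Lhx2 conditional knockout cells, and it lists 14 samples. Of these, 1 sample is used here, the E14 H3K27ac ChIP-Seq of CD1 mice, whose title and strain name no mutant allele or reporter. Its peaks rest on 113543038 ChIP tags and 9210563 control tags. Its label names retinal progenitor cells, while the study's methods describe chromatin from whole dissected retinas.

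H3K27ac, acetylation of lysine 27 of histone H3, is found at active promoters and enhancers, where it is laid down by acetyltransferases such as p300 and CBP. SOX proteins bind the minor groove of DNA through a high-mobility group box, recognise short A/T-rich words such as ACAAAG and ACAATG, and commonly act with partner factors of the POU or PAX families. SoxB1 proteins (SOX1 and SOX2) maintain neural progenitors, and SOX21, a SoxB2 protein, acts mainly as a repressor and promotes neuronal differentiation. SoxC proteins act in differentiating neurons, and SOX4 and SOX11 are needed for retinal ganglion cells. SoxE proteins act in glia and the neural crest: SOX8 and SOX9 in retinal progenitors and Müller glia, SOX10 in neural crest derivatives such as melanocytes and peripheral glia.

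The starts of 7 of the 9 genes were found in the RefSeq promoter table (GRCm38.p6), and each sequence matched mm9 exactly at 1 place. The 250 bases before the RefSeq start are shown for the 4 genes of SoxB and SoxC that had a peak at the start and for the 2 that had none, with every CpG dinucleotide in capitals, because the promoters of both kinds can then be set side by side. Each reads 5′ to 3′ on the gene's own strand.
Sox2 (peak), chr3:34548667-34548916, + strand: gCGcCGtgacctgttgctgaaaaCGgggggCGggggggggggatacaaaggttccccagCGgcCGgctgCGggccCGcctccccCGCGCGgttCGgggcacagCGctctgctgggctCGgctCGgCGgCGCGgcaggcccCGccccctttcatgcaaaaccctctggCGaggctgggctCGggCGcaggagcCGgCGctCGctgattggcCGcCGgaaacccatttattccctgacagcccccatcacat
Sox4 (peak downstream of these bases), chr13:29045569-29045818, - strand: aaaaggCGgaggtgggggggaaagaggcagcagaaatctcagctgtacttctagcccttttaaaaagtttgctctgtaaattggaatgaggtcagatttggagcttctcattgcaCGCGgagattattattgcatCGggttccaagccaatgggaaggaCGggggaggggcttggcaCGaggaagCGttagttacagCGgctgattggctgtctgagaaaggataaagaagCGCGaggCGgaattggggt
Sox11 (peak), chr12:28027584-28027833, - strand: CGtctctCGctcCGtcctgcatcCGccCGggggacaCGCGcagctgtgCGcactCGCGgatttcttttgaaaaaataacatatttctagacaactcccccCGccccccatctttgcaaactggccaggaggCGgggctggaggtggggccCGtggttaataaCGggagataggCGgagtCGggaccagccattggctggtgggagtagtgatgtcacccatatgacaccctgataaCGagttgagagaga
Sox12 (peak), chr2:152223783-152224032, - strand: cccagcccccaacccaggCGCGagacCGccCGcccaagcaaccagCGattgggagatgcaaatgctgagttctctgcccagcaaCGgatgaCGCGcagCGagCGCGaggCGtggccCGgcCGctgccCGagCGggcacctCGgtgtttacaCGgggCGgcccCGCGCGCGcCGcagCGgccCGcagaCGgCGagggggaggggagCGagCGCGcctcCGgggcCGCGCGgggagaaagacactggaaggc
Sox1 (no peak), chr8:12395269-12395518, + strand: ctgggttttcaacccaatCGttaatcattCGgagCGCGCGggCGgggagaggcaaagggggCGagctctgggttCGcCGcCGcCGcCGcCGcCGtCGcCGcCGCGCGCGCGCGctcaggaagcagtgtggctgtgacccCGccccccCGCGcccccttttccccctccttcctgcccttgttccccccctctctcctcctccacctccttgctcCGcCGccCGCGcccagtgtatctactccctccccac
Sox21 (no peak), chr14:118636253-118636502, - strand: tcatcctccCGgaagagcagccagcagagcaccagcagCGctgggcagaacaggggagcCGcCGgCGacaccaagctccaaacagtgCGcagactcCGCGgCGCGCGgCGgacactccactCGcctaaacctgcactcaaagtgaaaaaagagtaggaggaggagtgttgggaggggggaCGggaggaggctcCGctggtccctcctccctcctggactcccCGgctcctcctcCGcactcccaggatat

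All of these promoters held more CpG dinucleotides than the median of 6 over the 32851 RefSeq promoters, of the same 250 bases each. Sox12 held 35 CpG at a G+C content of 74.4%, Sox2 held 27 at 72.0%, Sox11 held 17 at 58.0% and Sox4 held 11 at 50.8%. The Sox1 promoter, with no peak, held 29 CpG at 71.2%, and that of Sox21 held 17 at 65.2%. The Sox4 bases lie just outside its peak, which overlaps another annotated start, so their count does not describe sequence within a called peak. The Sox1 count lay between those of Sox12 and Sox2. The promoter of Sox8, which had no peak either, held 18 CpG at 65.6%, against a median G+C content of 52.4% over all promoters. Of the 7 promoters, only that of Sox2 held the SOX word ACAAAG on either strand, in 1 copy, and 16.5% of RefSeq promoters did. The words ACAATG, in 10.7% of promoters, and TAATTA, the core word of LIM homeodomain factors such as LHX2, in 4.84%, were in none of the 7.

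H3K27ac was called at the transcription start site (TSS) of all 3 SoxC genes, of Sox2 alone in SoxB and of Sox9 alone in SoxE. A TSS peak is one that overlaps any annotated TSS of the gene extended by 1000 bp on either side. By this rule 5 of the 9 genes had one, or 55.6%, against 49.9% of the 22238 protein-coding genes, so the share over the 9 genes was close to that of genes in general. With peaks of at least 4-fold enrichment and an FDR of at most 0.001, the same 5 had one, against 37.9% of protein-coding genes. The 5 were Sox2, Sox4, Sox11, Sox12 and Sox9. Sox1, Sox21, Sox8 and Sox10 had none. The authors pooled both replicate libraries before calling peaks, so no value of a peak has a replicate error, no difference between genes could be tested, and all comparisons below are descriptions of 1 list. A signal from few cells and a weak signal in many cells cannot be told apart in this tissue.

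**Figure D1:**
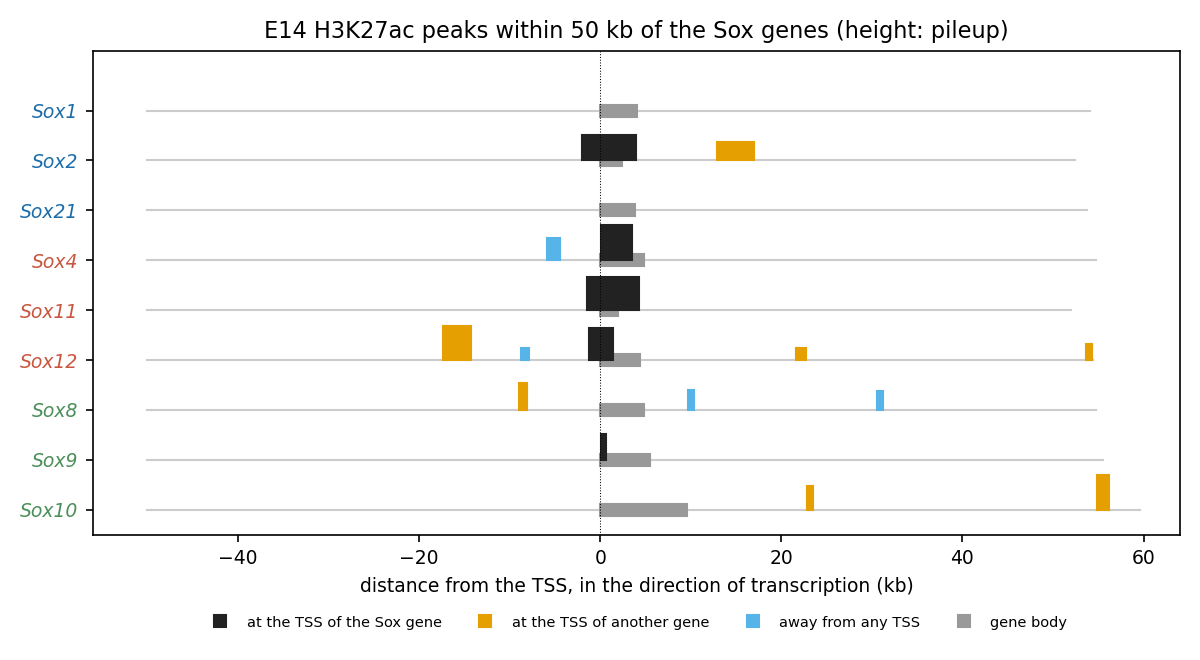
E14 H3K27ac peaks around the 9 Sox genes, drawn to scale by distance from the TSS in the direction of transcription (kb), with block height proportional to the mean pileup and gene bodies in grey. Sox1 and Sox21 have no peak in their windows, and the Sox12 window holds the most, with 5.

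The Sox2 peak spanned chr3:34546937-34552910 and was the longest of the 9 genes. Sox2 (ENSMUSG00000074637.3, chr3:34548927-34551383, + strand) lay wholly inside this peak of 5974 bp, which reached 1990 bp beyond the TSS on the upstream side and 3983 bp into and past the gene. Its whole gene body was covered, as in 0.454% of protein-coding genes (101 genes). By length the peak ranked 24 of 13463, and 0.198% of the genes with a TSS peak had one as long or longer. By mean pileup, the number of ChIP fragments over a base after scaling to the control library, it was ordinary. At 15.48 it ranked 6282, and 59.2% of genes with a TSS peak had a pileup as high. Its fold enrichment over the local background of the isotype control was 4.43 (rank 6857), against a median of 4.75 for genes with a TSS peak. Sox2 lies within the long non-coding gene Sox2ot, and the peak overlaps both.

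The words of SOX proteins were counted over the whole of the TSS peaks of Sox2 and the SoxC genes. The Sox9 peak was not counted on its own. ACAAAG and ACAATG, counted on both strands, each occurred 7 times in the Sox2 peak, or 2.34 of these words per kb, against 1.04 per kb over all peaks. In the SoxC peaks the density was 0.867 per kb at Sox4, 0.522 at Sox11 and 0.367 at Sox12, below that of all peaks. The Sox2 peak had a G+C content of 51.7%, against a median of 59.9% in the 1000 bp around the midpoints of all peaks. The part of base composition in these densities was not tested. The words were unevenly placed: the 1000 bp around the midpoint of the Sox2 peak held neither SOX word and no TAATTA, where 46.1% of all peaks held ACAAAG. The neighbouring Sox2ot peak of 4067 bp held each SOX word 1 time. TAATTA occurred 2 times in the Sox2 peak, or 0.335 per kb against 0.110 over all peaks, and 1 time in the Sox11 peak. Over the TSS peaks of Sox2 and the SoxC genes the 250 bases with the most of these words lay in the Sox2 peak, beginning 385 bp past the end of the gene. This stretch was chosen after the counts were seen and is shown because it holds 6 of the words, which are in capitals on whichever strand they lie (CTTTGT is ACAAAG on the other strand), with TAATTA and ACAAAG sharing 1 base at one place.
Sox2 downstream stretch, chr3:34551768-34552017, + strand: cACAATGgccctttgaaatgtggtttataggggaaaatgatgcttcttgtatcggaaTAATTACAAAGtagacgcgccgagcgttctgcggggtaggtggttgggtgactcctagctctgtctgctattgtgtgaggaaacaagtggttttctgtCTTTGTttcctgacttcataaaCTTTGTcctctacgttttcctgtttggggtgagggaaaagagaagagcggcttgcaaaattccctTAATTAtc
It holds ACAAAG 3 times, ACAATG 1 time and TAATTA 2 times. A stretch of 250 bases with at least 6 of the words was found in 3 of the 13463 peaks, that of Sox2 included, and of the 55 peaks of at least 5000 bp only the Sox2 peak held one. The cutoff of 6 was the count in the Sox2 stretch itself, so the Sox2 peak had to pass it. A match of letters describes the sequence and not the binding of a factor.

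The other SoxB genes stood in windows without any peak. Sox1 is not listed under its symbol in GENCODE vM1, and its TSS was placed at chr8:12395519 by the exact match of its RefSeq promoter. The nearest peak to it lay 276 kb away, a peak of 639 bp with a pileup of 20.72 at the TSS of Tubgcp3 and 4931415C17Rik. Sox21 (ENSMUSG00000061517.6, chr14:118632454-118636252, - strand) had its nearest peak 99.4 kb away, a peak of 511 bp with a pileup of 15.57 at the TSS of Gpr180. Of the protein-coding genes of GENCODE vM1, 27.9% (6197) had no peak in their window, Sox21 among them, and peak coverage in SoxB came from Sox2 alone. A gene without a peak had no region past the authors' threshold at this depth, which does not show that acetylation was absent.

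All 3 SoxC genes had a TSS peak, and all 3 peaks were both longer and higher than the median TSS peak of protein-coding genes (1137 bp, pileup 16.48). The Sox11 peak was the longest of them. Sox11 (ENSMUSG00000063632.5, chr12:28025562-28027574, - strand) had a peak of 5750 bp at chr12:28023320-28029069, rank 30 by length, with a pileup of 20.19 (rank 2060) and a fold enrichment of 5.36. By length times pileup it ranked 14, ahead of Sox2 (42), Sox4 (108), Sox12 (363) and Sox9 (9357). It reached 1495 bp upstream of its TSS and 4254 bp in the direction of transcription. It covered the whole of the short GENCODE vM1 record (2013 bp), and 50.5% of the RefSeq gene (8451 bp), so that the complete coverage rests on the annotation.

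The Sox4 peak was the highest of the 5 by pileup. Sox4 (ENSMUSG00000076431.3, chr13:29040788-29045582, - strand) had a peak of 3460 bp at chr13:29042020-29045479, rank 225 by length. Its pileup was 21.16 (rank 1475) and 13.9% of genes with a TSS peak had one as high. By fold enrichment, at 5.03 (rank 4413), it lay below Sox11 and Sox12. Unlike the peaks of Sox2, Sox11 and Sox12, it lay on 1 side of the gene's 5′ end: it began 103 bp downstream and extended to 3562 bp downstream, over 72.2% of the gene, so the Sox4 promoter bases shown above lie outside it. Another annotated start of Sox4 falls within the peak. The peak also overlaps the non-coding gene Gm17419, and the list does not tell strands apart.

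The Sox12 peak was the shortest of SoxC and the most evenly placed about its TSS. Sox12 (ENSMUSG00000051817.7, chr2:152219347-152223782, - strand) had a peak of 2727 bp at chr2:152222338-152225064, reaching 1282 bp upstream and 1444 bp downstream, which covered 32.6% of the gene. Its pileup was 19.67 (rank 2425), its fold enrichment was 5.33 and its length ranked 495, and 4.08% of genes with a TSS peak had one as long. The 3 SoxC peaks thus lay close together in pileup (19.67 to 21.16) and in fold enrichment (5.03 to 5.36), while their lengths ranged from 2727 to 5750 bp.

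Of SoxE, Sox9 alone had a TSS peak, and it was a short one. Sox9 (ENSMUSG00000000567.4, chr11:112643538-112649074, + strand) had a peak of 628 bp at chr11:112643580-112644207, which began 42 bp downstream of the TSS and ended 669 bp downstream. Its length ranked 10296, and 82.8% of genes with a TSS peak had one as long or longer. Its pileup of 15.50 (rank 6267) and fold enrichment of 4.30 were close to those of Sox2 (15.48 and 4.43), so the peaks of these genes differed in length and hardly in mean pileup. A mean over a whole peak does not give the height of its summit. When a peak had to cover the TSS base itself, Sox9 no longer counted and no SoxE gene did. Sox4 passed that rule only through another annotated start. The TSS of the non-coding gene BC006965 also lay within 1000 bp of the Sox9 peak, which therefore cannot be assigned to Sox9 alone.

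Sox8 and Sox10 had peaks in their windows but none at their own TSS. Around Sox8 (ENSMUSG00000024176.4, chr17:25702837-25707631, - strand) the nearest of 3 peaks lay 8.11 kb from the TSS, at the TSS of Lmf1, with 897 bp and a pileup of 16.6. The other two, 9.64 and 30.6 kb downstream of the Sox8 TSS, lay away from any TSS. Around Sox10 (ENSMUSG00000033006.8, chr15:78985343-78994920, - strand) both peaks lay at the TSSs of other genes, that of Polr2f and 1700088E04Rik (684 bp, pileup 14.31) 22.8 kb away and that of Micall1 (1329 bp, pileup 21.14) 54.9 kb away. The pileup of the Micall1 peak was close to that of the Sox4 peak.

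**Figure D2:**
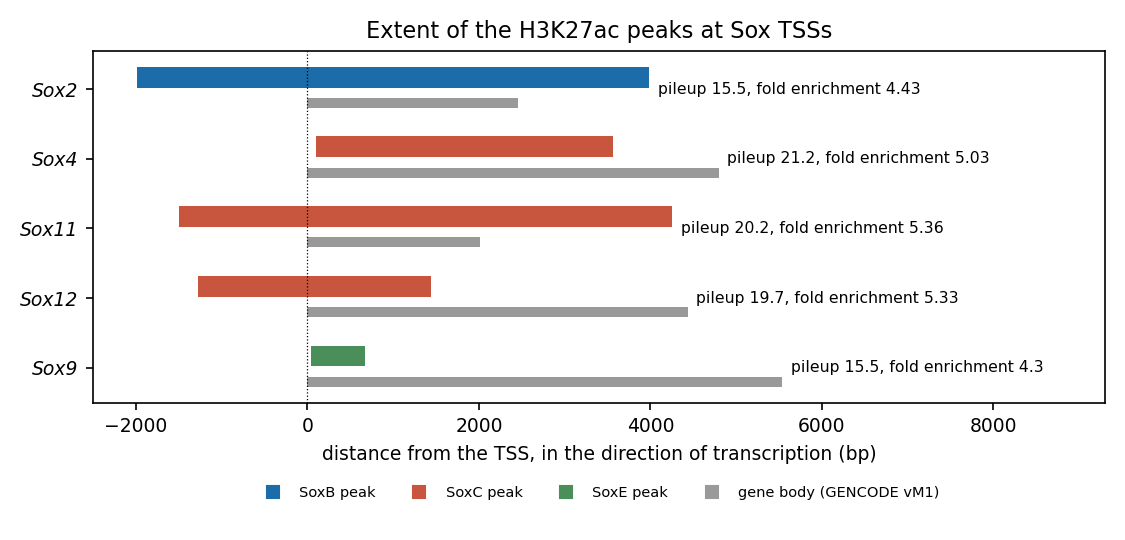
Extent of the 5 TSS peaks of Sox genes relative to the TSS (bp, direction of transcription), coloured by group, above the gene body of GENCODE vM1 in grey, with mean pileup and fold enrichment written beside each. The Sox2 and Sox11 peaks run past both ends of the gene record, whereas the Sox9 peak covers 628 bp.

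Against all peaks, the TSS peaks of the Sox genes spread widely in length and narrowly in pileup. The shortest measured 628 bp and the longest 5974 bp, and the median was 3460 bp, against 1015 bp over all peaks. Their pileups ran from 15.48 to 21.16, against a median of 16.25 over the 10608 peaks at a TSS, with Sox2 and Sox9 below that median and the SoxC genes above it. Over all 13463 peaks, length and pileup had a Spearman correlation of 0.344, a description across peaks of 1 list. The local background, the pileup divided by the fold enrichment, lay between 3.49 (Sox2) and 4.21 (Sox4) at the 5 peaks, against quartiles of 2.78 and 3.99 over genes with a TSS peak.

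**Figure D3:**
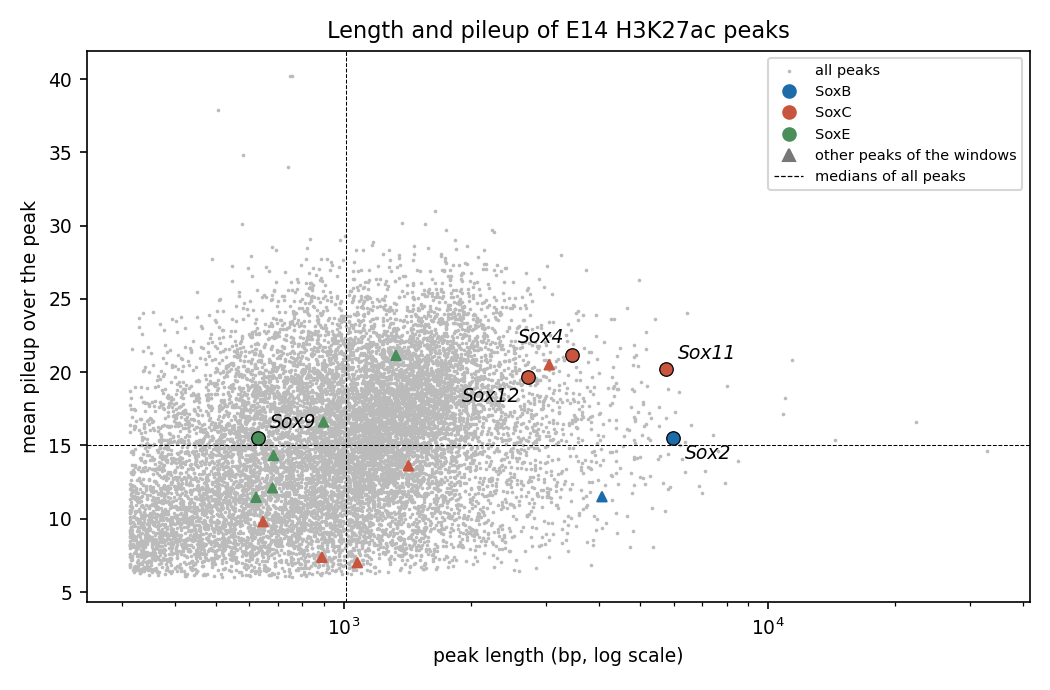
Mean pileup against length (bp, log scale) for all 13463 E14 H3K27ac peaks in grey, with the TSS peaks of the Sox genes as labelled circles and the other peaks of their windows as triangles, coloured by group; dashed lines mark the medians of all peaks. Sox2 and Sox11 lie at the long end, the SoxC peaks lie together at pileups of 19.67 to 21.16, and Sox9 lies left of the median length.

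The 11 other peaks of the windows lay at the TSS of another gene in 7 cases and away from any TSS in 4, or 4 of all 16 window peaks against 21.2% of the whole list. The 7 at another TSS had a median length of 1078 bp and a median pileup of 14.31. The longest of these, of 4067 bp (rank 123 by length) with a pileup of 11.5, lay at an annotated TSS of Sox2ot, 12.9 kb downstream of the Sox2 TSS. The Sox2ot record also overlaps the Sox2 peak. At Sox12, a peak of 3055 bp with a pileup of 20.5 at the TSSs of Zcchc3 and 6820408C15Rik, 14.3 kb upstream, was longer and higher than the Sox12 peak itself. Smaller peaks lay at the TSSs of Trib3 (646 bp, pileup 9.8) and of Nrsn2 and Gm14164 (1078 bp, pileup 7.0). A peak at another gene's start is counted in a window by distance alone.

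The 4 peaks away from any TSS lay around SoxC and SoxE genes, below the TSS peaks of the Sox genes in pileup and fold enrichment. They measured 622 to 1423 bp with pileups of 7.37 to 13.61 and fold enrichments of 3.05 to 3.77, where the 2855 such peaks of the whole list had medians of 801 bp, 9.9 and 3.79. In pileup 3 of the 4 lay above that median, and in fold enrichment all 4 lay below it. None of the 4 reached a 4-fold enrichment, so the stricter threshold of the alternatives removes them all. The Sox12 peak and the more distant Sox8 peak, with −log10 q of 1.66 and 1.61, also miss an FDR of 0.01. That of Sox4, at chr13:29050075-29051497, was the longest and highest of the 4 (1423 bp, pileup 13.61) and began 4.49 kb upstream of the TSS. That of Sox12, at chr2:152231621-152232509, had a pileup of 7.37 and lay 7.84 kb upstream. Those of Sox8, at chr17:25697309-25697988 and chr17:25676400-25677021, had pileups of 12.11 and 11.46. The 3 words searched were absent within the bounds of these 4 peaks. Over all peaks away from a TSS, the 1000 bp around the midpoint held ACAAAG in 67.8%, ACAATG in 39.4% and TAATTA in 18.6%, and around these 4 midpoints the same length held a word in 1 case, an ACAATG at the more distant Sox8 peak.

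Set side by side, the groups differed in the bases that peaks covered. Peaks covered 19028 bp of the SoxC windows, or 6.11%, with each gene at 4883 to 8395 bp. They covered 10041 bp of the SoxB windows, or 3.24%, all of it around Sox2. In SoxE they covered 4840 bp, or 1.51%, with each gene at 628 to 2199 bp. The lowest SoxC gene thus lay above the highest SoxE gene, while SoxB held both the highest value of the 9 genes and values of 0. For protein-coding genes in general the median was 1530.5 bp, with quartiles of 0 and 3196.5 bp, and 3 SoxC genes and Sox2 lay above the upper quartile. Of the covered bases in SoxC, 11937 bp belonged to the genes' own TSS peaks, against 628 bp in SoxE. With 3 genes a group these are descriptions of named genes and not of the groups at large.

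**Figure D4:**
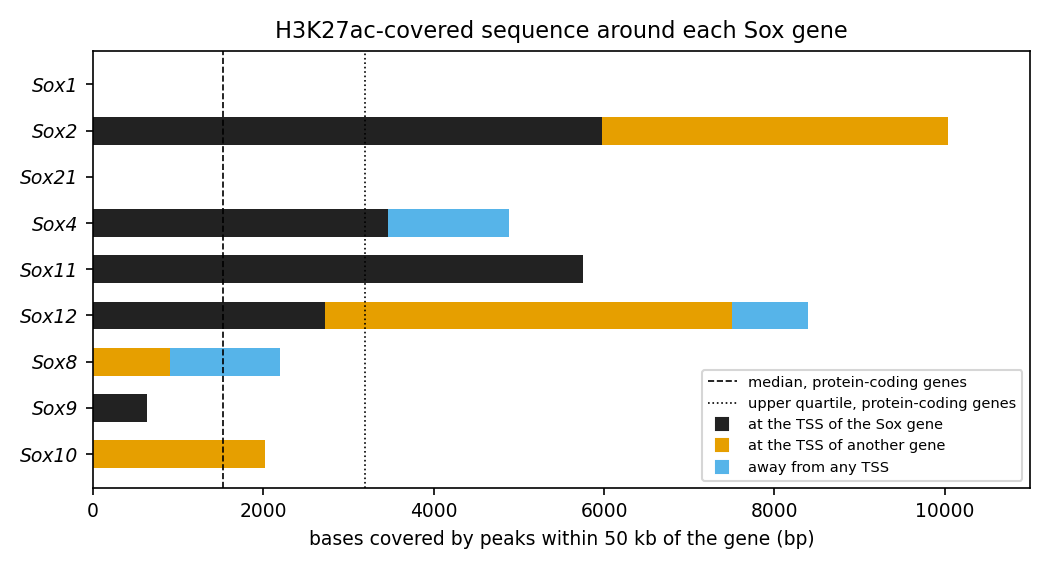
Bases covered by E14 H3K27ac peaks within 50 kb of each Sox gene (bp), split by peaks at the gene's own TSS, at the TSS of another gene and away from any TSS; the lines mark the median (1530.5 bp) and upper quartile (3196.5 bp) of protein-coding genes. Sox2 has the most, with 10041 bp, and Sox1 and Sox21 have none.

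The windows differed in how many genes they held. Sox2, Sox4, Sox11 and Sox9 had no other protein-coding gene within 50 kb, Sox1, Sox21 and Sox8 had 1, Sox10 had 3 and Sox12 had 4, against a median of 3. Whether the 1 gene counted at Sox1 is a record of Sox1 under another name was not checked. Of the 2344 protein-coding genes with no other such gene in the window, 39.6% had a TSS peak and 55.5% had no peak in the window. All 4 Sox genes of this kind had a TSS peak. Of the 8 peaks of SoxC and the 6 of SoxE, 3 each lay at the TSS of a neighbour. Within 500 kb the counts ranged from 2 (Sox21) to 29 (Sox8), and over all peaks 21.2% lay away from any TSS. Such peaks were 1 of 4 at Sox1, 2 of 4 at Sox2 and 0 of 2 at Sox21. They were 4 of 7 at Sox4 and 10 of 28 at Sox12. They were 5 of 29 at Sox8 and 3 of 24 at Sox10, and made up the largest shares at Sox11 and Sox9. Sox11 had 7, of which 6 lay away from any TSS, 5 of them 191 to 457 kb downstream and 1 upstream, with pileups of 7.77 to 10.6. Sox9 had 6, of which 4 lay away from any TSS, at 78.8, 88.1, 200.0 and 210.1 kb downstream, with lengths of 342 to 692 bp and pileups of 7.87 to 11.16.

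Of 11 other Sox genes, 5 had a TSS peak, or 45.5% against the 49.9% of protein-coding genes, and none of these peaks was as long as that of any SoxC gene. Sox3, the remaining SoxB1 gene, on the X chromosome, had a peak of 1255 bp with a pileup of 10.06 and a fold enrichment of 5.23. The SoxD genes, which lack a transactivation domain, had peaks at all 3 starts: Sox13 (1131 bp, pileup 17.17), Sox5 (917 bp, 12.31) and Sox6 (681 bp, 8.57). Sox30 had a peak of 733 bp with a pileup of 15.64. The SoxF genes of endothelium, Sox7, Sox17 and Sox18, had none, and neither had Sox14, Sox15 and Sry. Among 6 known partner factors 4 had a TSS peak: Pax6, with the longest peak of the list (32865 bp, pileup 14.59), the octamer-binding factor Pou2f1 (2496 bp, 24.41), Pou3f1 (1458 bp, 13.34) and Pou3f2 (1275 bp, 13.07). Pou3f3 and Pou3f4 had none.

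The labelled cell type was checked with marker lists. All 10 markers of retinal progenitors had a TSS peak, with lengths of 2395 to 32865 bp, a range that takes in the TSS peaks of Sox2 and of the SoxC genes and not that of Sox9. Of 6 markers of ganglion cells and their precursors, 4 had one, or 66.7%, against 49.9% of protein-coding genes. Of pigment cells 1 of 5 (Pmel), of lens 1 of 5 (Bfsp1) and of vessels 1 of 4 (Kdr) had one, and none of 4 markers of microglia and blood and none of 5 of periocular mesenchyme did. The part of other cell types in the Sox peaks was not tested.

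**Figure D5:**
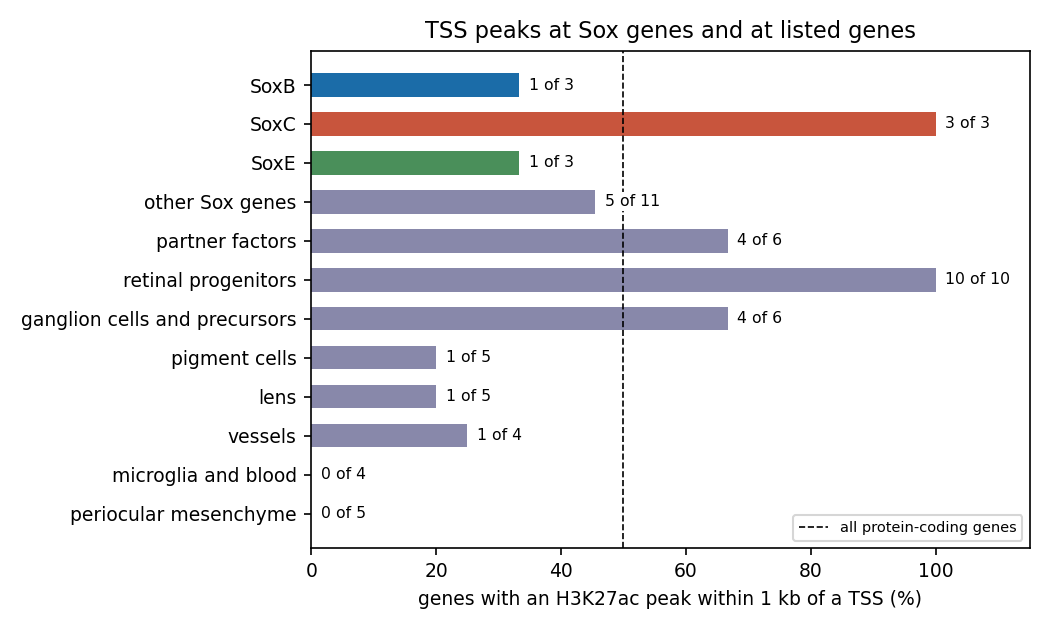
Share of genes with an E14 H3K27ac peak within 1 kb of a TSS (%), for the Sox groups, the other Sox genes, partner factors and the marker lists, with counts beside the bars and the share of all protein-coding genes (49.9%) as a dashed line. SoxC and the retinal progenitor markers are at 3 of 3 and 10 of 10, SoxB and SoxE at 1 of 3 each.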

How the data were processed

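E14 H3K27ac ChIP-Seq was measured in mouse retina, in 2 replicates, with an isotype control library. Reads were aligned by the authors to mm9 with Bowtie2, and broad regions (cutoff 0.1) were called on the pooled replicates with MACS 2.1.0.20140616. Per the file headers, 113543038 ChIP and 9210563 control tags remained after filtering. The pileup signal, as deposited by the authors, is the mean over each region after scaling to the control. The fold enrichment, a ratio deposited by the authors, is pileup over local background. The −log10 p and −log10 q values were deposited by the authors as MACS2 gave them.

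Peaks were intersected with GENCODE vM1 genes in mm9 (TSS extended by 1000 bp, windows of 50 kb), and ranked by each measure. Sequence was read from mm9 and from RefSeq promoters (GRCm38.p6). Overlap code was tested on simulated peaks. Sequence of the Sox9 and Sox10 promoters and of the Sox9 peak, and protein identity, were not analysed here. The members and lists were chosen with earlier results of these data known. All 9 genes were named, with the other genes by fixed lists and neighbours where a window peak lay at their TSS. No test was made, since the list is pooled. The other 13 samples were not analysed here. Alternatives were other peak thresholds, merging, TSS definitions, window sizes and gene lengths. Python 3.11.15, numpy 2.4.6, pandas 2.3.3, pysam 0.24.0 and matplotlib 3.10.9 were used.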

Additional observations from a re-analysis of the deposited data

How the results depend on the processing

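The same 5 Sox genes had a TSS peak with peaks of an FDR of at most 0.01, with peaks of at least 4-fold enrichment and an FDR of at most 0.001, with neighbouring peaks merged, and with promoters from 5000 bp upstream. When a peak had to cover the TSS base, Sox9 was lost and the SoxE count was 0. Sox4 was kept only through another annotated start, since its peak began 103 bp downstream of the gene's 5′ end. The 16 peaks in the windows became 9 at the strictest threshold and 26 with windows of 100 kb, 13 with windows of 20 kb or an FDR of at most 0.01, and 12 with peaks merged over the longer gap commonly used to stitch super-enhancers, an alternative chosen after seeing the data because no peaks lay within 1000 bp of each other. After that merging the Sox2 region (18950 bp) ranked 171 and that of Sox12 (18767 bp, joined to Zcchc3) ranked 174 of 11527. Sox4 moved from rank 225 to 848 and Sox11 from rank 30 to 1261. The share of protein-coding genes with a TSS peak ranged from 37.9 to 51.4%, and the 37.9% was at the strictest threshold. No paired analysis was possible because the replicates were pooled in 1 list before deposit, and for the same reason no replicate could be left out. The RefSeq gene lengths were also added after seeing the data. The effect of the control library, the shallower one, on which peaks passed was not tested.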
